A study of Mus musculus with 9 samples.

Results

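The genes described here encode the machinery of protein folding and secretion, and their CpG methylation was followed from naive B cells to antibody-secreting cells. The set holds 55 genes in 6 roles: entry into the endoplasmic reticulum (ER), chaperones, disulfide formation, ER-associated degradation, export in COPII vesicles, and retrieval to the ER. Members were taken by gene symbol, and a CpG was used where all 9 libraries had at least 10 reads, which left 914 of the 2460 deposited member CpGs. These lie in 46 of the 55 genes, among 356320 tested CpGs in all. Of the 914, 312 CpGs in 33 genes lie within 1000 bp of a transcription start site (near CpGs) and 602 in 44 genes lie farther away (far CpGs). No CpG could be tested in Hsp90b1, Canx, Pdia3, Txndc11, Ero1lb, Derl1, Sec16a, Sar1a or Kdelr2.

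Reduced representation bisulfite sequencing cuts DNA with MspI, which enriches CpG-rich stretches, and reads an unmethylated cytosine as thymine, so the methylation level of a CpG is the percentage of its reads that stay cytosine. All cells were sorted spleen cells of female mice, strain C57Bl/6J, 10 weeks old, with 3 libraries per group. Naive B cells (B220+ CD43-) came from naive mice, the control for the agent. Plasmablasts carried CD138 with intermediate B220 (B220mid CD138+), and plasma cells carried it with low B220 (B220low CD138+). Both were collected on day 3 after lipopolysaccharide (LPS), a bacterial product that drives B cells to divide and secrete antibody. Both induced groups share the LPS treatment and the day, so stage and treatment cannot be told apart in their comparison with naive B cells. The labels do not say which animals gave which library or whether animals were pooled. The p-values therefore rest on these libraries alone, and part of the variation among them may be technical. For single CpGs 1 dispersion of 1.27 was used throughout, so a CpG's own spread between libraries does not enter its p.

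Antibody-secreting cells enlarge their ER. Newly made immunoglobulin chains pass through the Sec61 channel, are held by chaperones such as BiP (encoded by Hspa5), gain disulfide bonds from the protein disulfide isomerase family, and leave in COPII vesicles. Chains that fail to fold are drawn back out and degraded. Many of these genes are turned on by the unfolded protein response, whose factors XBP1 and ATF6 act at ER stress elements in promoters. Methylation at CpG-rich promoters is usually low whether or not the gene is active, whereas most CpGs elsewhere are methylated.

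Promoter windows of 250 bases ending at the base before the annotated start are shown for 4 members, chosen after their values were seen. Hspa5 stands for promoters that had almost no methylation in any group, and Creld2, Derl3 and Syvn1 for members whose near CpGs were lower in plasma cells. The sequences are from RefSeq, mouse build GRCm38.p6, with strand and position given in the gene's direction. The capitals mark the ER stress element, searched on both strands as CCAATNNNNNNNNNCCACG. The methylation values below are on the older build mm9, so the printed positions of CpGs and of promoters cannot be set against each other.
Hspa5: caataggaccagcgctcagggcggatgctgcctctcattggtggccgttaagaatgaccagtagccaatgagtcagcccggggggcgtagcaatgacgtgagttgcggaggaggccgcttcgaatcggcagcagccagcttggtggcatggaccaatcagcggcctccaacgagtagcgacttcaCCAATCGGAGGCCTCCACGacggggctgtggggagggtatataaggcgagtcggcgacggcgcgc
Creld2: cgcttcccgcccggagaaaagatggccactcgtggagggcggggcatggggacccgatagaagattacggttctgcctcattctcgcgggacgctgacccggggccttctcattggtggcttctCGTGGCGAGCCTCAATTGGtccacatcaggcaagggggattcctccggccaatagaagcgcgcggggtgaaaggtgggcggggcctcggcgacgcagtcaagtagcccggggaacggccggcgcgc
Derl3: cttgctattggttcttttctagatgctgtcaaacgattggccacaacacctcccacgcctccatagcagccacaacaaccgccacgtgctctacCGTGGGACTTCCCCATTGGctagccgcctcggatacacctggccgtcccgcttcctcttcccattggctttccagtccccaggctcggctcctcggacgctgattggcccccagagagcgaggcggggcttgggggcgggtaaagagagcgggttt
Syvn1: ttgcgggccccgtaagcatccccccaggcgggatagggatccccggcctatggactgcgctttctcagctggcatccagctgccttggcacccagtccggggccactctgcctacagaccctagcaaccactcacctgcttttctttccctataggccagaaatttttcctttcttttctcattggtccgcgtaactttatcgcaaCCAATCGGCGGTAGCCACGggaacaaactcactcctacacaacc

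These windows lie at chr2:34771840-34772089 for Hspa5, chr15:88819396-88819645 for Creld2, chr10:75893148-75893397 for Derl3 and chr19:6046326-6046575 for Syvn1, all on the plus strand. The element begins 65 bases before the start in Hspa5, 126 in Creld2, 156 in Derl3 and 44 in Syvn1. In Creld2 and Derl3 it reads on the other strand. Of 44 members with a promoter in the RefSeq table, 9 (20.5%) held the element, against 39 of all 32851 promoter windows (0.119%). The other 5 were Calr, Canx, Dnajc3, Hsp90b1 and Pdia6. The windows searched also reach past the start, unlike those printed. Shares of members are of genes, which had 53 windows, and shares of all are of windows, so the units differ, here and for the next motif. A second motif, TGACGTGG, which ATF6 and XBP1 are known to bind, was found on either strand in 5 members (11.4%), Kdelr3, Sec23a, Sec24d, Txndc11 and Txndc5, against 0.676% of all windows. The 2 motifs were found in different members. A match describes letters in a window and not a bound site.

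Libraries held 16037172 to 29948088 reads over CpGs, with medians of 24 to 35 reads at member CpGs. A background level was seen at the 78187 CpGs whose mean was under 5%: libraries 1, 2 and 3 had 0.749%, 3.13% and 2.63% as naive B cells, 2.70%, 6.11% and 2.08% as plasmablasts, and 1.13%, 1.16% and 1.07% as plasma cells. It moves with the groups at the lowest levels. With it subtracted from each library, the mean near difference of members in plasma cells was -1.38 points from naive B cells, against -2.43 without subtraction, and -0.881 from plasmablasts, against -3.39. Against naive library 1 alone, whose background was low like that of plasma cells, it was -0.804. Of the T cell markers, Lck and Tcf7 had 5 or more near CpGs. Tcf7, a T cell gene, fell near its starts from 63.8% ± 8.72 (SD, n = 3) in naive B cells and 63.8% ± 6.88 in plasmablasts to 41.0% ± 7.10 in plasma cells (limma-moderated quasi-binomial test on reads, adjusted p = 0.00907 against naive B cells). Lck, also of T cells, was at 14.2% ± 1.73, 15.8% ± 3.85 and 9.62% ± 2.74 and was not called. No myeloid marker was testable there. Far from the start sites, 6 of the 8 T cell markers had a locus, and all 6 were lower in plasma cells, by differences of -15.003 points in Cd8a to -30.8 in Thy1. Of 5 myeloid markers, Csf1r was lower there at -21.3 points and Spi1, at -5.49, was not called. The same call was made at 89.7% of all far loci. The part of other cell types in the results was not tested.

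Near the start sites the secretory genes carried little methylation in every group, and away from them they were highly methylated in naive B cells and lower in both induced stages. Over the 312 near CpGs the mean level was 5.95% ± 1.41 (SD, n = 3) in naive, 6.92% ± 2.48 in plasmablast and 3.52% ± 0.216 in plasma cell libraries. Over the 602 far CpGs it was 81.7% ± 0.903, 71.0% ± 0.661 and 65.3% ± 2.22. By library, near levels were 4.33%, 6.88% and 6.65% in naive, 5.95%, 9.74% and 5.06% in plasmablast and 3.76%, 3.33% and 3.49% in plasma cell libraries. Near levels overlapped between naive B cells and plasmablasts, and plasma cells lay just below the other 6 libraries. Far levels were 80.7%, 82.4% and 81.9%, then 70.6%, 71.8% and 70.7%, then 67.8%, 64.4% and 63.7%, so that the 3 groups did not overlap. Over all tested CpGs the far means were 79.1%, 68.8% and 63.4%, close to those of the members, while the near means were 15.8%, 15.7% and 11.7%, above those of the members. These means over chosen members are a description and carry no test.

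**Figure D1:**
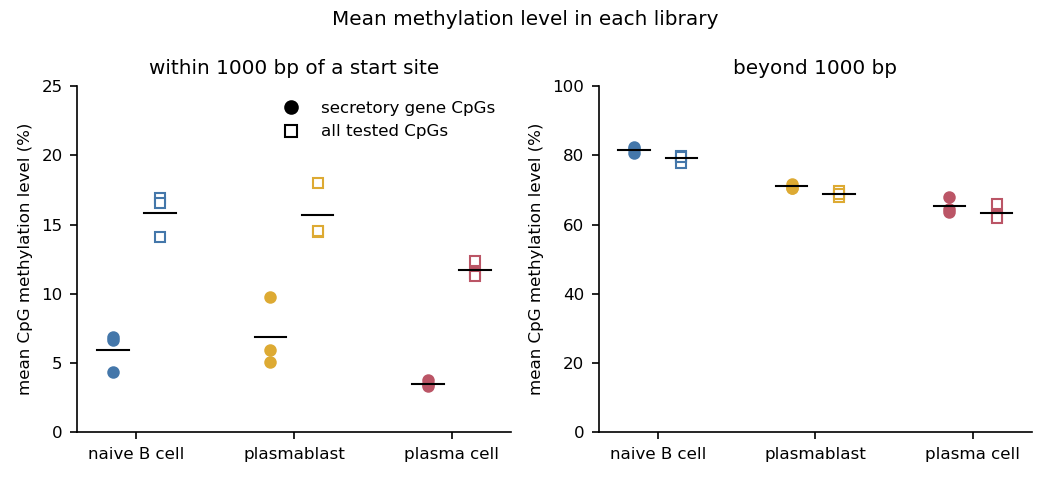
Mean methylation level (%) of each library over CpGs within 1000 bp of a start site (left) and beyond it (right), for secretory gene CpGs (filled circles) and all tested CpGs (open squares), with the group mean as a line. Secretory gene CpGs lie below all CpGs near the start sites and slightly above them beyond, and the far level of every plasmablast and plasma cell library lies below every naive B cell library.

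A CpG counted as changed when its adjusted p was below 0.01 and its level differed by 20 percentage points or more, by a quasi-binomial model on methylated and unmethylated reads fitted over the whole table (limma-moderated dispersion, Benjamini-Hochberg). In plasma cells against naive B cells 8 of 312 near member CpGs (2.56%) and 184 of 602 far ones (30.6%) were lower. The same call was made at 4.9% of all near CpGs and 29% of all far CpGs, so the far share of the members is close to the background. In plasmablasts against naive B cells 5 near CpGs (1.6%) and 85 far CpGs (14.1%) were lower, against 1.81% and 13.6% of all. Between plasma cells and plasmablasts no near CpG (0.329% of all; 85 of 312 at an unadjusted p under 0.05) and 2 far CpGs (0.332%, against 0.67% of all) were lower. No member CpG was called higher in any of these comparisons by this model; at an unadjusted p under 0.05, 33 near and 11 far CpGs were higher in plasmablasts than naive B cells, 0 and 3 in plasma cells than naive B cells, and 1 and 4 in plasma cells than plasmablasts.

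These counts depend on how the spread between libraries is pooled. With the dispersion moderated over all CpGs, rather than from CpGs between 10% and 90%, 5 near and 140 far CpGs were lower in plasma cells against naive B cells, 0 and 18 in plasmablasts against naive B cells, and none between the induced stages. Shares of all CpGs by that rule, or at an unadjusted p, are not given, so such counts stand without a background. By the rule used here, at least 1 far CpG was lower in plasma cells in 35 of 44 members and in plasmablasts in 23, or 79.5% and 52.3%, against 79.4% and 60.6% of all genes with a far CpG. The authors' deposited table of differential CpGs lists 135 far and 5 near tested member CpGs for plasma cells, and 29 and 2 for plasmablasts, all of them also called here.

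The change with distance was gradual. In naive B cells the mean member level rose from 2.12% within 250 bp of a start site to 13.8% from 500 to 1000 bp, 47.0% from 1000 to 2000 bp and 87.4% from 5000 to 20000 bp. Plasma cells were at 1.30%, 8.26%, 32.6% and 74.0% in the same intervals. Plasmablasts lay above naive B cells within 250 bp, at 4.18%, and between the other groups from 500 bp on. Of the 312 near CpGs, 258 had a group mean under 5% in naive, 199 in plasmablast and 293 in plasma cell libraries, each counted over all 312. This and the following level limits were chosen after the values were seen, and shares of all CpGs by them are not given. The 5% limit lies below the background level of plasmablast library 2 (6.11%), while plasma cell libraries had 1.07% to 1.16%. The part of this background in the 3 counts was not tested. Only 17 near CpGs, in 9 genes, had 20% or more in naive B cells, and 8 of these 17 are the ones lower in plasma cells. A call needs 20 points, so near CpGs under 20% could hardly be called lower. That the 8 lie among the 17 was thus largely set by the rule. Of the 602 far CpGs, 476 had a group mean of 80% or more in naive, 338 in plasmablast and 248 in plasma cell libraries, each counted over all 602. Starting level was compared with a choice made on naive B cell library 1 alone: among CpGs at 80% or more there, plasma cells differed from naive libraries 2 and 3 by -19.4 points at the 9 near member CpGs and by -17.8 points at the 473 far ones. Over all CpGs so chosen the same differences were -17.0 points near and -17.7 points far.

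**Figure D2:**
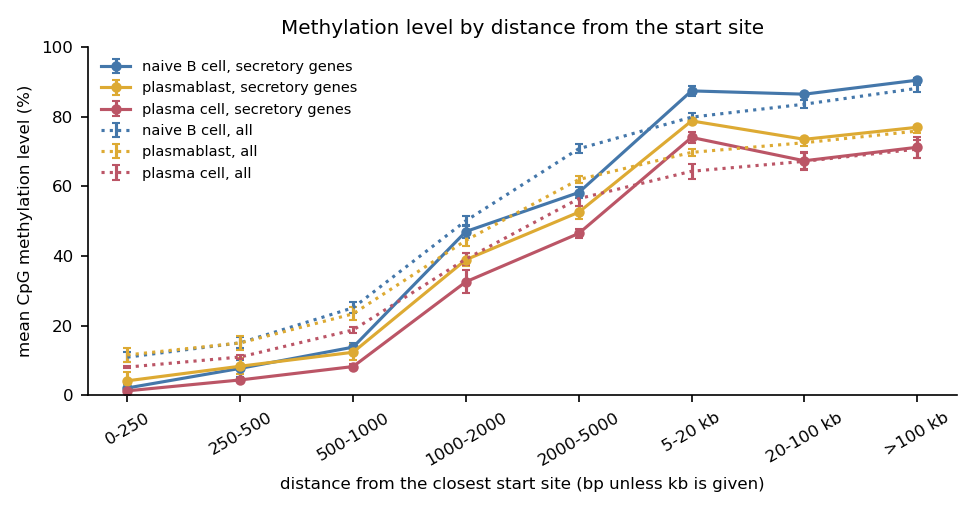
Mean CpG methylation level (%) against the distance from the closest start site, for naive B cells, plasmablasts and plasma cells (mean and SD of 3 libraries), over secretory gene CpGs (solid) and all tested CpGs (dotted). Member levels in naive B cells go from 2.12% within 250 bp to 87.4% from 5000 to 20000 bp, and the groups separate beyond 1000 bp.

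Reads were also summed over the near or far CpGs of each gene with at least 5 of them, here called a gene locus, with a call needing an adjusted p below 0.01 and 5 points or more of difference. Of 24 near loci, 4 were lower in plasma cells against naive B cells (10.3% of all near loci), Hyou1, Syvn1, Derl3 and Creld2. None was called in plasmablasts against naive B cells (0.717% of all; 2 lower and 5 higher at an unadjusted p under 0.05, 0 by limma on unweighted means) or in plasma cells against plasmablasts (0.562% of all; 16 lower unadjusted, 0 by limma). Of 29 far loci, 17 were lower in plasmablasts and 27 in plasma cells than in naive B cells, against 62.8% and 89.7% of all far loci. Over all CpGs of a gene, 9 and 29 of 41 loci were lower in the same comparisons (26.1% and 67.8% of all loci).

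Between plasma cells and plasmablasts no member locus was called over all CpGs or over far CpGs (0% of all loci in both; for the far loci, 16 of 29 lower at an unadjusted p under 0.05 and 2 by limma on unweighted means). The median far difference of members was -16.0 points in plasma cells and -10.0 in plasmablasts against naive B cells, beside -17.1 and -10.3 over all far loci. All 3 plasma cell libraries lay below all 3 naive libraries in 28 of the 29 far loci, and the plasmablast mean lay between the other 2 means in 28. Neither count is given over all far loci, of which 89.7% were called lower in plasma cells. They are therefore not to be read as particular to the members. Without plasma cell library 1, 11 far loci were called between plasma cells and plasmablasts, and without naive library 1, 4 were. Shares of all far loci with these libraries left out are not given, so these 2 counts stand without a background. By limma on unweighted means, 1209 of all 11230 far loci were lower between these stages, beside 2 of the 29 members.

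Where a gene had at least 5 CpGs on each side, the change far from the start was tested against the change near it within that gene (limma on far-minus-near levels). The outcome is bounded by the near level: in 11 of the 14 members tested the near level in naive B cells was smaller than the far fall in plasma cells, so a near fall of that size was not possible. The loss was called larger far from the start in 12 of the 14, both in plasmablasts and in plasma cells against naive B cells (67.8% and 72.3% of all genes tested), and these calls do not show that near CpGs were spared. At CpGs of 80% or more the near and far differences in plasma cells were -19.4 and -17.8 points, as given above. The median excess was -10.2 points in plasmablasts and -13.9 in plasma cells, beside -10.3 and -11.7 over all genes. Between plasma cells and plasmablasts none of the 14 was called (0.174% of all; 3 at an unadjusted p under 0.05). The difference was -23.5 ± 2.35 points (SE) in Dnajb9 (adjusted p = 7.21e-06), whose near CpGs went from 1.52% to 0.842% while its far CpGs went from 94.3% to 70.2%. It was -19.7 ± 2.48 points in Herpud1 and -15.6 ± 2.03 in Sec13. The exceptions were Kdelr3, at 1.93 ± 1.74 points (adjusted p = 0.313), and Derl3, at 5.54 ± 2.38 points (adjusted p = 0.0466). The far CpGs of Kdelr3 stood at 8.02% in naive B cells, so a large far fall was not possible there. In Derl3 the near CpGs went from 16.2% to 1.66% and the far CpGs from 88.0% to 78.9%.

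Most secretory promoters were nearly free of methylation before any stimulus. Of the 24 near loci, 17 were under 5% in naive B cells, with means of 0.433% to 3.67%. The same 17 stood at 2.31% to 6.31% in plasmablasts and at 0.474% to 1.87% in plasma cells. None of the 17 was called in any comparison. A call needs 5 points or more, so loci this low in naive B cells could not be called lower than them. That part of the outcome was set by the choice of loci. Their lowest adjusted p was 0.0118, for Sec63 between plasma cells and plasmablasts. Plasmablast library 2, which had the highest background level, was the highest of the 9 libraries in 19 of the 24 near loci. Hspa5, which encodes the chaperone BiP, was at 0%, 0% and 1.30% in naive, 3.08%, 5.43% and 0.752% in plasmablast and 1.08%, 0.651% and 0% in plasma cell libraries. The groups overlapped, and the difference of plasma cells from naive B cells was 0.302 points (adjusted p = 0.743).

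**Figure D3:**
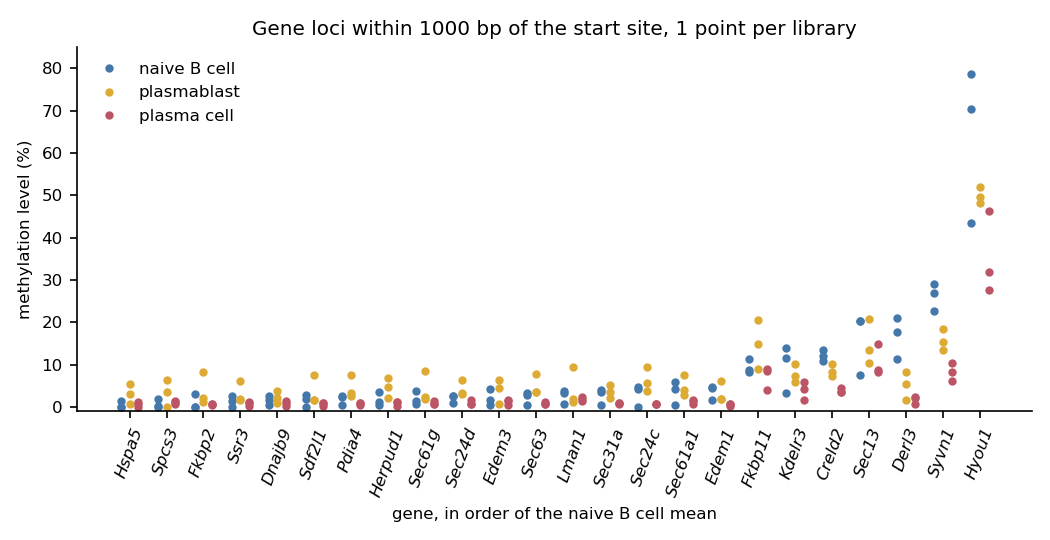
Methylation level (%) of the 24 gene loci within 1000 bp of the start site, 1 point per library, in order of the naive B cell mean. The 17 genes on the left lie under 5% on average in naive B cells, and Derl3, Syvn1 and Hyou1 on the right have the highest naive levels.

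Syvn1 encodes HRD1, the ubiquitin ligase of ER-associated degradation. Its near locus held 29.0%, 26.9% and 22.7% in naive, 15.3%, 18.4% and 13.4% in plasmablast and 8.20%, 10.3% and 6.17% in plasma cell libraries. No libraries overlapped between the groups, and the fall to plasma cells was -18.6 points (adjusted p = 4.32e-05). The near CpGs called were 3 exonic ones 680 to 719 bp from the start (mm9, chr19:6051452-6051491). Their mean level was 92.9% ± 1.29 in naive, 65.7% ± 9.60 in plasmablast and 58.7% ± 8.53 in plasma cell libraries. All 3 CpGs were called in both comparisons with naive B cells. The CpGs at the start itself were unmethylated in all groups, and with near CpGs limited to 500 bp the locus differed by -1.35 points (adjusted p = 0.307). With at least 20 reads in every library the call was also lost (-1.35 points, adjusted p = 0.229). With each CpG weighted equally the near level was 24.3% in naive, 18.6% in plasmablast and 14.8% in plasma cell libraries. The pooled fall is thus wider than that of the CpG levels, and the part of the share of reads in it was not tested.

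Derl3 encodes a derlin, a membrane protein through which misfolded proteins leave the ER. Its near locus was at 11.2%, 17.7% and 21.0% in naive, 5.33%, 8.24% and 1.64% in plasmablast and 2.07%, 2.42% and 0.738% in plasma cell libraries. Both induced groups lay below every naive library, and the difference of plasma cells from naive B cells was -13.6 points (adjusted p = 0.000775; 0.0161 without plasma cell library 3). The intronic CpG 464 bp from the start (chr10:75356608) held 29.2%, 35.3% and 47.1% in naive, 12%, 3.33% and 0% in plasmablast and 9.09%, 3.45% and 1.82% in plasma cell libraries. It was lower in both induced stages (adjusted p = 0.000153 and 1.82e-06). The next CpG, 488 bp from the start, spread widely among naive libraries, at 12.2%, 32.4% and 52.9%, and was called in plasma cells alone, at 2.27%, 6.90% and 0%.

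Creld2 encodes an ER-resident protein with disulfide isomerase activity that is induced by ER stress. Its near locus was at 13.4%, 10.8% and 12.02% in naive, 7.21%, 10.1% and 8.27% in plasmablast and 4.51%, 3.49% and 3.55% in plasma cell libraries. The groups did not overlap, and plasma cells differed from naive B cells by -8.12 points (adjusted p = 0.000697; 0.0150 without plasma cell library 3). The near CpGs called in plasma cells were 2 intronic ones. At 718 bp (chr15:88650795) the means were 74.9% ± 6.01, 52.1% ± 2.08 and 37.6% ± 1.84, and at 732 bp (chr15:88650809) they were 51.9% ± 1.68, 29.97% ± 2.32 and 13.7% ± 7.59.

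Farther into Creld2 stood the member CpG with the smallest p of all. At 1987 bp (chr15:88652064), in an intron that the deposited table also classes as promoter, the level was 92.0%, 93.8% and 92.9% in naive B cells. It was 3.57%, 22.9% and 6.98% in plasmablasts and 6.15%, 2.22% and 0% in plasma cells, from 16 to 65 reads per library. Plasmablasts thus stood close to plasma cells and far below naive B cells (adjusted p = 1.95e-24), and plasma cells did not pass the test against them (adjusted p = 0.160). A neighbouring CpG at 2150 bp went from 93.1% ± 8.67 to 44.2% ± 15.7 and 25.9% ± 2.12 in the same order of groups.

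Hyou1 encodes a large chaperone of the ER lumen that acts with BiP. Its near locus had 43.3%, 70.4% and 78.6% in naive, 48.3%, 52.0% and 49.5% in plasmablast and 46.2%, 27.5% and 31.8% in plasma cell libraries, and was called lower in plasma cells by -26.5 points (adjusted p = 0.00549). None of its 6 near CpGs was called in any comparison. Of these, 3 lie before a second annotated start and had group means of 88.9% to 100%, and 3 lie after the first start and had 0% to 7.87%. The methylated CpGs drew 43.0%, 70.9% and 77.4% of the locus reads in naive B cells and 47.1%, 26.6% and 35.0% in plasma cells, so the pooled level followed the share of reads. With each CpG weighted equally the difference was -3.26 points (limma, adjusted p = 0.261), and the call was also lost without naive libraries 2 or 3 or plasma cell libraries 2 or 3.

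Edem2, a lectin-like protein that marks misfolded glycoproteins for degradation, had 1 near CpG lower in plasma cells without a testable locus. At 864 bp, in an intron (chr2:155554346), it held 40%, 56.5% and 44.2% in naive, 25.9%, 35.0% and 33.3% in plasmablast and 35.7%, 12.5% and 17.0% in plasma cell libraries. The adjusted p was 0.000527 for plasma cells against naive B cells, with no overlap between these groups, and plasma cell library 1 lay above all plasmablasts. Not every methylated near CpG changed: the 2 methylated CpGs of Sec13 just before its start were at 80.2% ± 5.87 and 89.0% ± 8.40 in naive B cells and 79.0% ± 7.82 and 79.6% ± 11.1 in plasma cells, and were not called.

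**Figure D4:**
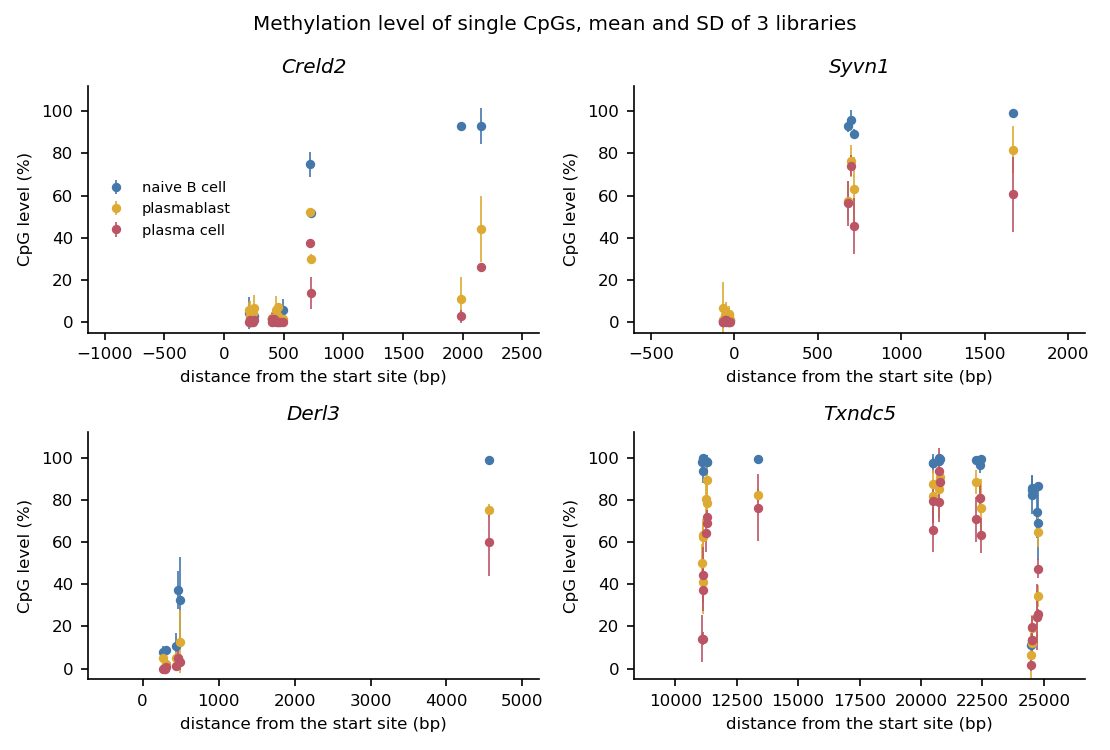
Methylation level (%) of single CpGs of Creld2, Syvn1, Derl3 and Txndc5 against the distance from the start site (bp), as mean and SD of 3 libraries per group. In Creld2 and Syvn1 the CpGs by the start are low in all groups and the groups part at CpGs 680 bp or more away, the lowest being the Creld2 CpG at 1987 bp with 2.79% in plasma cells.

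Far from the start sites the genes of ER entry lost methylation at all 6 of their loci in plasma cells, with 41 of 98 far CpGs (41.8%) lower. Over all genes the same calls were made at 89.7% of far loci and 29% of far CpGs, the shares against which the counts of each role are to be read. Sec61b gave 23 of the 41 lower CpGs, from its 37 far CpGs. The role's share thus rests in large part on that gene. In plasmablasts 2 of the 6 loci were lower, beside 62.8% of all far loci. Spcs2 encodes a subunit of signal peptidase, which clips the signal peptide from chains entering the ER. Its 5 far CpGs, all in an intron 2112 to 2304 bp from the start (chr7:107005088-107005280), held 48.6%, 66.3% and 50.7% in naive, 22.96%, 47.9% and 27.2% in plasmablast and 20.2%, 9.55% and 7.14% in plasma cell libraries. Plasma cells lay below both other groups, and the difference from naive B cells was -40.8 points (adjusted p = 0.000156), the widest of the 29 far loci. All 5 CpGs were lower in plasma cells, and 4 in plasmablasts, but the locus was not called in plasmablasts on pooled reads (adjusted p = 0.0493).

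Sec61b encodes the beta subunit of the Sec61 channel. Its 37 far CpGs, none within a gene, held 82.1%, 79.3% and 82.8% in naive, 69.6%, 68.8% and 66.7% in plasmablast and 61.8%, 56.8% and 54.9% in plasma cell libraries. The 3 groups did not overlap, and plasma cells differed by -23.2 points from naive B cells (adjusted p = 2.52e-06) with 23 of the 37 CpGs lower. One CpG 44345 bp from the start (chr4:47531879) was among the 2 called between the induced stages: it held 53.3%, 83.3% and 63.2% in naive, 75.0%, 64.1% and 57.1% in plasmablast and 36.4%, 28.0% and 20.0% in plasma cell libraries. Plasmablasts overlapped naive B cells there, and plasma cells lay below both (adjusted p = 0.00543 against plasmablasts, lost with the dispersion moderated over all CpGs). The CpG of Sec61b with the smallest p, 229097 bp away (chr4:47716631), went from 82.4% ± 7.44 to 61.0% ± 3.47 and 32.2% ± 19.0.

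Ssr1, Ssr2 and Ssr3 encode subunits of the translocon-associated complex that stands beside the channel. The far locus of Ssr1 was at 81.2%, 81.9% and 79.6% in naive, 70.3%, 71.8% and 71.9% in plasmablast and 67.3%, 53.8% and 54.3% in plasma cell libraries, a difference of -21.8 points in plasma cells (adjusted p = 4.76e-05). The groups did not overlap, but plasmablasts were not called on pooled reads (adjusted p = 0.0111). Its exonic CpG in the 3' UTR, 27013 bp from the start (chr13:38059045), stood apart from the locus with 90.2%, 93.9% and 100% in naive, 31.2%, 34.1% and 27.3% in plasmablast and 20.0%, 16.3% and 11.3% in plasma cell libraries (adjusted p = 1.28e-17 and 1.69e-33 against naive B cells). Ssr3 fell by 23.7 points in plasma cells, from 78.6% ± 9.85 to 53.8% ± 4.37, and Ssr2 by 13.0 points, from 92.2% ± 2.68 to 79.3% ± 1.59; for neither was the plasmablast locus called. Sec62, a partner of the channel, was at 95.7% ± 2.12 in naive B cells, and its plasmablasts, at 82.5% ± 3.68, lay beside its plasma cells, at 82.3% ± 5.59 (difference 0.0667 points, adjusted p = 0.987).

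Among chaperones and cofactors all 7 far loci were lower in plasma cells and 6 in plasmablasts, with 26 of 110 far CpGs (23.6%, against 29% of all) lower in plasma cells. All 7 loci stand beside 89.7% of all far loci in plasma cells, and the 6 beside 62.8% in plasmablasts. Dnajb9 encodes ERdj4, a cochaperone of BiP. Its 12 far CpGs, none within a gene, held 90.7%, 96.4% and 94.5% in naive, 72.3%, 77.1% and 79.1% in plasmablast and 69.5%, 64.7% and 67.9% in plasma cell libraries, with no overlap and a difference of -26.4 points in plasma cells (adjusted p = 5.88e-06). Its strongest CpG lies 1015960 bp from the start, so the gene is the closest one and no more is known of the link. The Hyou1 far locus fell from 98.1% ± 1.38 to 82.5% ± 3.43 in plasma cells, Dnajc3, which encodes an ER cochaperone (p58IPK), from 96.4% ± 1.47 to 84.2% ± 3.05, and Dnajb11, which encodes ERdj3, from 98.4% ± 0.519 to 87.6% ± 3.23.

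Mzb1 encodes a plasma cell protein that aids immunoglobulin assembly. Of its 26 far CpGs, 24 were under 20% in naive B cells. The locus was at 8.12%, 19.7% and 14.8% in naive, 9.78%, 16.3% and 13.6% in plasmablast and 6.05%, 3.03% and 5.07% in plasma cell libraries. Plasma cells lay below the other libraries and the locus was called lower at -8.71 points on pooled reads (adjusted p = 0.00244), but not with CpGs weighted equally (-5.56 points, limma, adjusted p = 0.0131). None of the 24 low CpGs was called, but a call needs 20 points. CpGs under 20% in naive B cells could hardly be called lower than them. The CpG 4231 bp away went from 97.9% ± 1.92 in naive B cells to 78.2% ± 2.77 and 46.8% ± 11.7 and was called in plasma cells (adjusted p = 8.46e-12).

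All 5 far loci of disulfide formation were lower in plasma cells and 3 in plasmablasts. Over all genes 89.7% and 62.8% of far loci were lower. Of the role's 88 far CpGs, 37 (42.05%, against 29% of all) were lower in plasma cells. Txndc5 gave 25 of the 37, from 46 far CpGs. Pdia5 gave 5 of 13, Pdia6 4 of 11, Pdia4 2 of 8 and Ero1l 1 of 10. The role's share thus rests largely on Txndc5. Txndc5 encodes a disulfide isomerase of the ER. Its 46 far CpGs held 88.0%, 83.2% and 81.4% in naive, 67.5%, 65.3% and 69.4% in plasmablast and 62.9%, 56.3% and 56.9% in plasma cell libraries, without overlap, with differences of -17.2 points in plasmablasts (adjusted p = 7.10e-05) and -25.4 in plasma cells (adjusted p = 3.63e-06). Lower CpGs were clustered in its introns. At 3 CpGs 24505 to 24518 bp from the start (chr13:38595264-38595277) the level was 84.3% ± 3.80 in naive, 14.8% ± 3.38 in plasmablast and 15.7% ± 0.442 in plasma cell libraries.

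A second intronic stretch of Txndc5, of 7 CpGs 11101 to 11301 bp from the start (chr13:38608481-38608681), went from 98.0% ± 2.13 in naive B cells through 66.4% ± 5.82 to 45.1% ± 4.64. At its CpG closest to the start (chr13:38608681) naive B cells held 93.6%, 100% and 100%, plasmablasts 58.3%, 51.4% and 40%, and plasma cells 26.9%, 10.5% and 5.26%. The groups did not overlap, and this was the other CpG called between plasma cells and plasmablasts (adjusted p = 0.00920, lost with the dispersion moderated over all CpGs). In one Txndc5 stretch the low level was thus present in plasmablasts, and in the other plasmablasts lay midway; the difference between the stretches was not tested.

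Pdia5, Pdia6 and Pdia4 encode further disulfide isomerases and Ero1l the oxidase that recharges them. The Pdia5 far locus was at 96.8%, 96.4% and 95.8% in naive, 81.7%, 79.4% and 81.1% in plasmablast and 82.8%, 73.3% and 72.5% in plasma cell libraries. The induced groups overlapped each other and lay below naive B cells, with differences of -15.7 points in plasmablasts (adjusted p = 7.64e-05) and -20.2 in plasma cells. Pdia6 went from 78.2% ± 3.92 in naive B cells to 58.5% ± 8.84 in plasma cells, Pdia4 from 97.6% ± 1.48 to 86.2% ± 1.59, and Ero1l from 98.4% ± 0.658 to 86.5% ± 3.29. The 8 far CpGs of Pdia4 all lie within other genes.

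In ER-associated degradation 4 of 5 far loci were lower in plasma cells and 2 in plasmablasts, with 38 of 129 far CpGs (29.5%, against 29% of all) lower in plasma cells, beside the same 89.7% and 62.8% of all far loci. Sel1l encodes the partner of HRD1. Its 55 far CpGs, 31541 to 1744260 bp from the start and none within a gene, held 80.04%, 88.7% and 86.8% in naive, 78.1%, 78.3% and 79.9% in plasmablast and 59.99%, 53.5% and 55.4% in plasma cell libraries. Plasma cells lay below both other groups, at -28.2 points from naive B cells (adjusted p = 3.37e-06), and plasmablasts were not called on pooled reads (-6.09 points, adjusted p = 0.0324). With CpGs weighted equally the plasmablast difference was -12.2 points and was called (limma, adjusted p = 6.67e-05), and the plasma cell difference was -17.9 points. In plasma cells 17 of the 55 CpGs were lower.

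Herpud1, a stress-induced protein of the same degradation complex, held 74.8%, 77.8% and 78.3% over its 14 far CpGs in naive libraries, 64.8%, 64.3% and 62.7% in plasmablast and 54.2%, 48.4% and 45.1% in plasma cell libraries. The groups did not overlap, with differences of -12.9 points (adjusted p = 0.00113) and -27.4 points (adjusted p = 5.27e-06) from naive B cells. Its 5 lower CpGs 7125 to 7345 bp from the start (chr8:96917526-96917746), 4 of them exonic, went from 95.5% ± 3.43 to 70.2% ± 6.62 and 58.6% ± 10.3. Edem3 and Edem1, which like Edem2 act on misfolded glycoproteins, fell from 90.2% ± 1.69 to 73.7% ± 0.764 and from 80.5% ± 4.32 to 61.8% ± 7.82 in plasma cells. The exception was Derl3, at 90.6% ± 3.59, 88.2% ± 4.71 and 82.3% ± 2.74, whose far locus was not called on pooled reads (adjusted p = 0.0492) but was with CpGs weighted equally (-9.03 points, adjusted p = 0.000950 by limma).

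In COPII export, the coat that buds vesicles from the ER, all 5 far loci were lower in plasma cells and 4 in plasmablasts, with 42 of 155 far CpGs (27.1%, against 29% of all) lower in plasma cells, again beside 89.7% and 62.8% of all far loci. Sec31a encodes an outer coat subunit. Its 32 far CpGs held 96.8%, 97.0% and 96.6% in naive, 87.0%, 87.3% and 86.0% in plasmablast and 84.9%, 81.1% and 79.8% in plasma cell libraries. The groups did not overlap, and the differences from naive B cells were -10.1 points (adjusted p = 3.19e-05) and -14.6 points (adjusted p = 1.99e-06). Sec23a, of the inner coat, went from 91.9% ± 1.18 to 79.9% ± 0.379 and 77.1% ± 2.84, and Sec13, the partner of Sec31a, from 84.4% ± 0.373 to 71.7% ± 4.11 and 68.4% ± 3.65. All 13 far CpGs of Sec13 lie in the neighbouring gene Atp2b2. Lman1 encodes the cargo receptor ERGIC-53 and went from 94.8% ± 2.67 to 85.4% ± 1.17 and 80.9% ± 1.05.

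Retrieval to the ER had no called far CpG. Kdelr3 encodes a receptor that returns escaped ER proteins, and its 19 far CpGs held 5.00%, 7.55% and 9.08% in naive, 8.82%, 12.3% and 6.76% in plasmablast and 7.06%, 5.16% and 4.25% in plasma cell libraries. The groups overlapped (adjusted p = 0.189 for plasma cells against naive B cells). Of these 19 CpGs, 17 were under 20% in naive B cells. None of the 22 far CpGs of this role was lower in any of the 3 comparisons. At the role's 15 near CpGs none was called either. A call needs 20 points, and the role's CpGs averaged 16.2% far and 6.85% near in naive B cells. At most of them a called fall from naive B cells was thus hardly possible. Over all CpGs of a gene, Kdelr1 was called lower in plasma cells at -26.3 points on the pooled reads of its 5 CpGs (adjusted p = 0.00505), but not with CpGs weighted equally (-2.41 points, limma, adjusted p = 0.128).

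**Figure D5:**
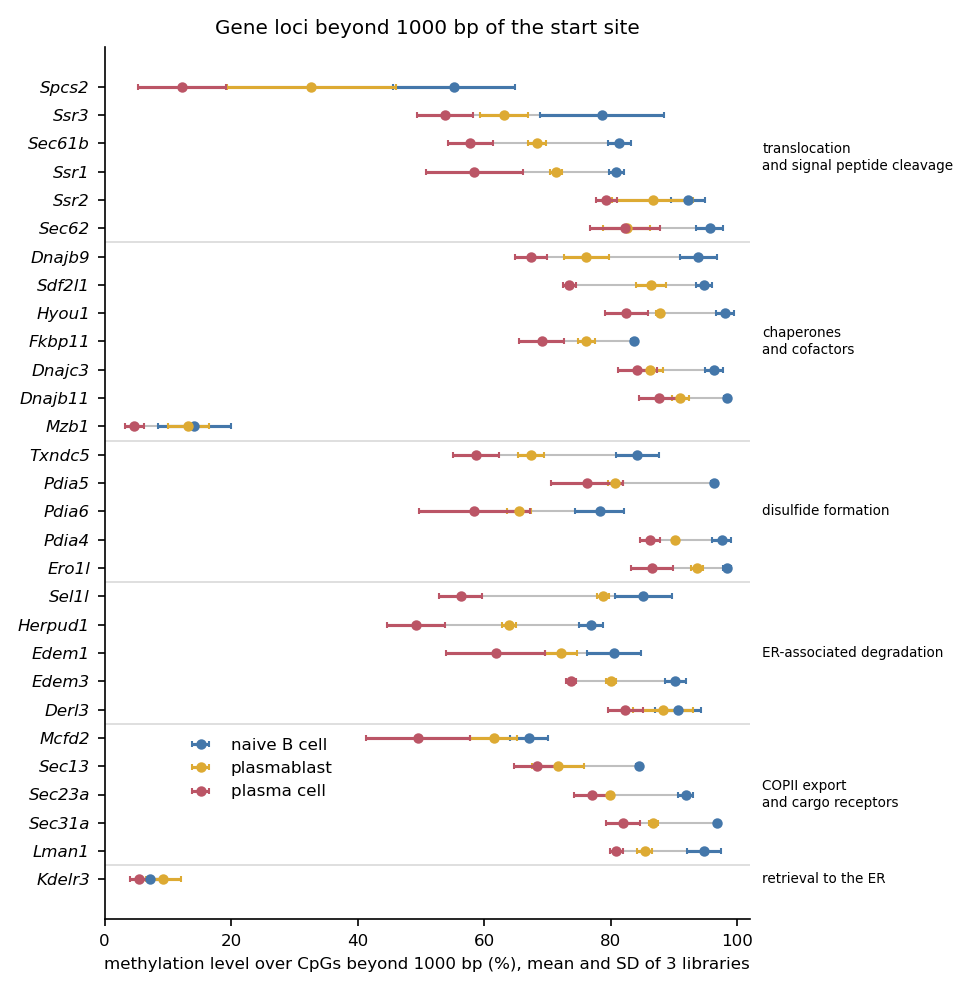
Methylation level (%) of the 29 gene loci beyond 1000 bp, by role, as mean and SD of 3 libraries for naive B cells, plasmablasts and plasma cells. Plasma cells lie left of naive B cells at every locus, from -2.02 points in Kdelr3 to -40.8 in Spcs2, and Mzb1 and Kdelr3 stand apart at low levels.

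The CpG with the smallest p in 14 more of the named members gives levels at single sites; since each was picked by its p, its difference describes that CpG and not its locus. That they are called in plasma cells follows from how they were picked. In plasmablasts 8 of the 14 were called, and those of Edem1, Sec23a, Dnajc3, Ero1l, Pdia4 and Syvn1 were not. A Sel1l CpG at -1408640 bp from the start (chr12:94496235) was at 91.3%, 88.1% and 91.4% in naive, 45.0%, 73.3% and 68.8% in plasmablast and 41.4%, 8.33% and 14.3% in plasma cell libraries. Plasma cell library 1 lay well above the other 2 plasma cell libraries but below every plasmablast. A Lman1 CpG in an intron of Ccbe1 went from 79.4% ± 4.19 through 37.6% ± 10.9 in plasmablasts to 20.5% ± 3.36 in plasma cells. The exonic Herpud1 CpG at 7345 bp (chr8:96917746) went from 99.1% ± 1.48 through 74.5% ± 9.69 to 53.2% ± 17.1.

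Some of these CpGs lie outside annotated genes. That of Dnajb9 (chr12:44295093) went from 98.8% ± 2.03 in naive B cells through 72.2% ± 8.01 to 55.2% ± 11.05, and that of Edem1, 382414 bp away (chr6:109161050), from 96.5% ± 3.58 through 77.6% ± 3.24 to 53.0% ± 3.05. Those of Sec31a (40566 bp, chr5:100761936) and Sec23a (217433 bp, chr12:59895570) ended in plasma cells at 49.1% ± 12.4 and 66.3% ± 12.3, from 92.5% ± 2.15 and 99.3% ± 1.13. At both, every plasma cell library lay below every naive one.

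Others lie in the member or a neighbour. In introns of their own genes, the CpGs of Dnajb11 (4981 bp), Dnajc3 (7987 bp) and Ero1l (5561 bp) ended at 69.0% ± 10.3, 75.7% ± 2.30 and 63.6% ± 22.5 in plasma cells, from 98.6% ± 2.46, 98.5% ± 2.62 and 96.3% ± 6.42 in naive B cells. Of the 3, Ero1l varied most between plasma cell libraries, at 80.7%, 38.1% and 72.0%. In neighbouring genes, the CpG of Edem3 in 1700025G04Rik (chr1:153711109) went from 93.8% ± 1.84 to 53.7% ± 11.8, that of Derl3 in Smarcb1 (chr10:75360698) from 98.8% ± 2.10 to 60.1% ± 16.4, and that of Pdia4 in Zfp786 (chr6:47771343) from 99.2% ± 1.34 to 71.8% ± 3.43. The exonic CpG of Syvn1 at 1666 bp (chr19:6052438) went from 99.2% ± 1.31 through 81.7% ± 11.1 to 60.5% ± 17.6.

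The symbol of a far CpG names the gene with the closest start site, and many far CpGs lie outside the gene itself. Of the 602, 176 lie in the body of the member, 97 in another gene and 329 in no gene. The share lower in plasma cells was 30.1% in the member's own body, 25.8% in other genes and 32.2% outside genes. CpGs over 100000 bp away numbered 132 in 8 members, and 61 of them (46.2%) were lower in plasma cells, against 123 of 470 (26.2%) closer in. Over all CpGs the shares were 34.4% and 28.1%, so a higher share with distance was also seen across the table. These limits were chosen after the values were seen and the differences were not tested.

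Some lower CpGs came in runs. Counting at least 3 called CpGs no more than 200 bp apart, a rule set after the values were seen, 14 stretches in 11 genes were lower in plasma cells and 6 in 5 genes in plasmablasts. These are 23.9% and 10.9% of the 46 members, against 14.7% and 4.53% of all genes by the same rule, and the difference was not tested. CpGs on one MspI fragment share reads, so a run is not a set of independent measurements. Besides those of Txndc5, Syvn1, Spcs2, Herpud1 and Ssr1, a run of 7 CpGs of Sec61b 44345 to 44556 bp from the start went from 80.1% ± 3.54 to 67.4% ± 4.27 and 46.0% ± 11.0. A run of 3 intronic CpGs in Pdia5, 33543 to 33741 bp from the start (chr16:35457217-35457415), went from 95.1% ± 1.33 to 70.3% ± 6.68 and 64.97% ± 8.33. A run of 4 in Sec31a, 42123 to 42333 bp away, went from 97.4% ± 0.498 to 79.6% ± 4.46 and 70.6% ± 13.4.

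Other genes of the same pathway were counted in the same way. Of 12 genes for stress sensors and their factors, such as Xbp1 and Atf6, all 8 far loci tested were lower in plasma cells and 5 in plasmablasts, with 19 and 8 of 95 far CpGs lower and no near locus called among 5. Of 54 further secretory genes, 24 of 28 far loci were lower in plasma cells and 19 in plasmablasts, and 1 of 27 near loci was lower in plasma cells. In this longer list 132 of 497 far CpGs and 5 of 260 near CpGs were lower in plasma cells. Over all genes 89.7% of far loci were lower in plasma cells and 62.8% in plasmablasts, and 10.3% of near loci in plasma cells. Of all far CpGs 29% were lower in plasma cells and 13.6% in plasmablasts, and of all near CpGs 4.9% in plasma cells. No locus of either list was higher. Of the 137 lower CpGs of the longer list, the genes with the highest counts were Stt3b, a subunit of the enzyme that attaches N-glycans (20 of 99 CpGs), and Srprb, of the receptor that docks ribosomes at the ER (14 of 31). Among the sensors the counts were highest in Creb3l2, an ER-bound transcription factor (5 of 28), and Eif2ak3, which encodes the sensor PERK (3 of 52).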

How the data were processed

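The authors deposited, for each CpG, counts of methylated and unmethylated reads per library, together with the level as a fraction, the closest gene by transcription start site and the distance to it (build mm9). Bismark and Bowtie2 are the tools in the submitters' processing notes, without versions. Library construction used adaptors of 2 kinds and PCR, so reads are not independent molecules. Further lists of differential CpGs were used as the authors' deposited table.

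The members and the lists of other pathway genes were chosen with earlier results of these data known. CpGs with at least 10 reads in all 9 libraries were fitted over the whole table with a quasi-binomial model, 1 level per group. The Pearson dispersion was moderated with limma 3.58.1 in R 4.3.3 and kept at 1 or above. Each contrast was tested by an F statistic on the change in deviance, with Benjamini-Hochberg adjustment over the table. The fit was tested on simulated data. The dispersion prior came from CpGs with mean levels of 10% to 90% and gave 1.27 for every CpG, so a CpG's own spread between libraries does not enter its p. Of the 3 rules run (this one, all CpGs, and a floor at 1 before moderation), this was adopted after the member counts under all 3 had been seen, because it was the one calibrated in the simulation, and it gives the most calls. Gene loci use summed reads with the prior over all loci, and printed differences are of pooled reads while printed levels are means of library levels. Loci were also fitted by limma on unweighted CpG means.

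Named members follow a rule: in each role up to 4 with most far CpGs lower in plasma cells and up to 2 with the smallest far difference, every member with a near call or a call between induced stages, and 6 always named. Of each, the called CpG with the smallest p in plasma cells against naive B cells was taken, and most of these are printed. CpGs of 2 members on an excluded chromosome are given without coordinates. The result of 1 lineage marker is not reported here. Promoter sequences and motif counts come from RefSeq (GRCm38.p6) and were never aligned to mm9 positions. Same-numbered libraries of different groups correlated at -0.0287 to 0.0302 in their deviations, and those of other numbers at -0.0368 to 0.0419. The numbers thus showed no sign of pairing, but whether they pair the samples is not known. Replicates of a group correlated at 0.956 to 0.986 and each counts as 1 sample. Alternatives covered read minimums, near limits, thresholds, library background and sets, dispersion rules and single libraries left out. Python 3.11.15 with numpy 2.4.6, pandas 2.3.3 and scipy 1.17.1 was used, and matplotlib 3.10.9 for figures.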

Additional observations from a re-analysis of the deposited data

How the results depend on the processing

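The counts below are of members, given as lower in plasmablasts than naive B cells, then in plasma cells than naive B cells, then in plasma cells than plasmablasts, where 3 are named. Shares over all CpGs or genes under these settings are not given, so the counts cannot be set against a background. Of the summary values under other settings, 400 stayed within 1.5 times or 1 SD and 87 moved. Of the values of named loci, 681 kept direction and call, 21 lost the call, 6 gained it and 6 changed sign. The causes of these moves were not tested.

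Leaving out 1 library gave 63 to 86 far CpGs lower in plasmablasts, 153 to 203 in plasma cells and 0 to 9 between the induced stages. Near CpGs came to 2 to 5, 6 to 8 and 0 to 1, and CpGs higher in plasmablasts to 0 to 1. Far loci came to 14 to 20, 26 to 27 and 0 to 11 (11 without plasma cell 1, 4 without naive B cell 1). Near loci came to 0 to 1, 1 to 6 (1 without plasma cell 3) and 0 to 3, and loci over all CpGs to 4 to 12, 17 to 33 and 0 to 12. Genes with more loss far than near were 10 to 12 in plasmablasts and 12 in plasma cells throughout. Signs changed at near loci that were not called, for plasma cells against naive B cells: Hspa5 ranged from -0.0684 to 0.631 points (-0.0684 without naive B cell 1), Ssr3 from -1.31 to 0.0916 and Herpud1 from -1.58 to 0.0973 (without naive B cell 2), Dnajb9 from -1.27 to 0.136 and Edem3 from -1.50 to 0.191 (without naive B cell 3), and Dnajb9 was at 0.0723 without plasma cell 1.

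With the replicate number as a block, far CpGs lower between induced stages went from 2 to 0, and no other summary count moved by over 1.5 times. Whether the numbers pair the samples is not known. At least 5 reads gave 278 far CpGs lower in plasma cells, 7 between induced stages, and 20 and 19 genes with more loss far than near. At least 20 reads, which leaves fewer CpGs, gave 1 and 2 near CpGs, 36, 71 and 0 far CpGs, 2 near loci in plasma cells, 11, 14 and 1 far loci, 1 locus over all CpGs between induced stages, and 2 genes with more loss far than near in either comparison. A minimum difference of 10 points gave 169, 278 and 4 far CpGs, 1 near CpG between induced stages and 2 CpGs higher in plasmablasts.

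With the set of libraries by background level as a term, near CpGs came to 3 and 5, far CpGs to 111 in plasma cells and 0 between induced stages, near loci to 1 and 2, and loci over all CpGs to 17 in plasma cells. Fits of only the groups compared gave 19 loci over all CpGs in plasma cells and 1 over all, 2 near and 1 far between induced stages. Unweighted means gave 20 loci over all CpGs in plasmablasts, and 2 over all and 2 far between induced stages. The near limit of 500 bp gave 1 and 2 near CpGs and 1 near locus in plasma cells, and the limit of 2500 bp gave 12 and 22 near CpGs.

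The mean far difference of plasmablasts from naive B cells, -10.7 points, was -9.73 with the 500 bp limit, -12.1 after subtracting the background and -9.12 with reads pooled. That of plasma cells, -16.4, was -20.2 with reads pooled, and that between induced stages, -5.70, was -3.19 after subtraction and -11.1 pooled. The mean near difference of plasma cells from naive B cells, -2.43, was -4.36 with the 2500 bp limit, -0.804 within one set of libraries and -4.01 pooled, and that between induced stages, -3.39, was -0.881 after subtraction.

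Among settings added after seeing the data, the dispersion over all CpGs gave 0, 5 and 0 near CpGs and 18, 140 and 0 far CpGs. The dispersion floored first gave 1 far CpG between induced stages, and limiting far CpGs to 100000 bp gave 54 in plasmablasts.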
